A study of Homo sapiens with 6 samples.

Results

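Mitogen-activated protein kinase (MAPK) cascades are relays of protein kinases, and their families are taken here as the protein-coding genes whose symbol is MAPK, MAP2K, MAP3K or MAP4K followed by a number alone. Of 58395 Ensembl genes listed for HCT116 cells, 43 carry such a symbol, and 42 of them are described: 12 MAPK, 7 MAP2K, 18 MAP3K and 5 MAP4K genes. They are picked by name alone, although the families were chosen with earlier results of these data known. Kinases of the same relay with other names, such as BRAF, are therefore described with the other genes of the pathway. HCT116 is an established line of human colorectal cancer cells. The study compares cells with a non-target hairpin (shControl) and cells with a hairpin against STBD1 (shSTBD1), which encodes an adaptor that links glycogen to autophagy, and asks how its depletion alters gene expression. Each group has 3 biological replicates with 1 RNA-seq library each. According to the methods, both hairpins are delivered by lentivirus with antibiotic selection, so shControl cells share the infection and the selection. Fewer cells of a state and less RNA per cell cannot be told apart in such bulk libraries.

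In a cascade, a MAP3K phosphorylates a MAP2K, the MAP2K phosphorylates a MAPK on a threonine and a tyrosine close to its active site, and the MAPK then phosphorylates transcription factors and other kinases. MAP4Ks act above some MAP3Ks. The ERK branch, to which MAP2K1, MAP2K2 and MAPK3 belong, carries growth factor and RAS signals, and the JNK and p38 branches respond mostly to stress and cytokines. The pathway is switched by phosphorylation, and RNA-seq measures only how much transcript each kinase has.

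The codons that these phosphorylations address are shown because they encode the residues through which each kinase is switched. The following windows of 27 bases come from the canonical coding sequences of GENCODE release 44 on hg38, each within 1 exon, and are written 5′ to 3′ on the coding strand. Capitals mark the codons of the doubly phosphorylated T-x-Y motif in the MAPKs, and the codons of the motif with both phosphorylated residues in the MAP2Ks.
MAPK3 (chr16:30118086-30118112, minus strand, exon 4): ggcttcctgACGGAGTATgtggctacg
MAPK7 (chr17:19380855-19380881, plus strand, exon 4): tacttcatgACTGAGTATgtggccacg
MAPK8 (chr10:48420242-48420268, plus strand, exon 6): tttatgatgACGCCTTATgtagtgact
MAPK9 (chr5:180249025-180249051, minus strand, exon 6): ttcatgatgACCCCTTACgtggtgaca
MAPK12 (chr22:50256140-50256166, minus strand, exon 7): agtgagatgACTGGGTACgtggtgacc
MAPK14 (chr6:36075881-36075907, plus strand, exon 7): gatgaaatgACAGGCTACgtggccact
MAP2K4 (chr17:12113310-12113336, plus strand, exon 7): gtggacTCTATTGCCAAGACAagagat
MAP2K7 (chr19:7911109-7911135, plus strand, exon 7): gtggacTCCAAAGCCAAGACGcggagc

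The windows of MAPK8 and MAPK9, both JNKs, differ at 5 of 27 bases, and those of MAPK3 and MAPK7, both ERKs, at 5. MAPK3 and MAPK8 differ at 13 bases. MAP2K4 and MAP2K7, both activators of JNK, differ at 9, and MAP2K4 and the p38 activator MAP2K3 at 5. Despite such stretches, the reads of the members are rarely shared between genes. The posterior standard deviation that RSEM gives for a count, which rises where reads fit several genes, is above 5% of the count in only 1 of the 42 members, MAPK10.

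The libraries hold between 17689097 and 21668274 expected counts, the read numbers that RSEM assigns to genes. After rounding and TMM scaling, the quasi-likelihood F-test of edgeR is run on 15566 genes with enough counts. A gene counts as changed where its adjusted p (Benjamini-Hochberg, over all 15566 genes) is below 0.05. Library-scaled counts (CPM) follow the same scaling, while length-scaled values (TPM) also account for transcript length and allow levels of different genes to be compared. The library shControl replicate 1 stands apart: its counts differ from those of the other shControl libraries with a chi-square per degree of freedom of 6.26 and 5.00, against 1.64 to 2.02 for the other pairs within a group. Where leaving it out changes the call or the direction of a kinase or further pathway gene described by its values in each library, the value without it is given beside the result. STBD1 itself is 16.2, 15.7 and 14.4 CPM in shControl and 11.6, 9.07 and 9.16 CPM in shSTBD1. On the log2 scale the change (shSTBD1 over shControl, as throughout) is -0.64 with a standard error of 0.098 (adjusted p = 0.00029), and -0.61 without shControl replicate 1. The posterior standard deviation of its count is 8.4%, so part of its reads also fit other genes. An exact permutation test of 1 gene over the 6 libraries, two-sided, gives p = 0.1 for STBD1, the smallest p that 3 against 3 allows.

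Most of the cascade is transcribed in these cells. Averaged over the 6 libraries, 38 members reach at least 1 TPM and 29 reach at least 10 TPM. The MAPKs described here include MAPK3 (ERK1) and the p38 kinase MAPK12, both with 49.7 TPM, and MAPK8 (JNK1) with 45.2 TPM. The libraries of these 3 overlap in level, between 45.4 and 54.0 TPM for MAPK3, 46.8 and 54.1 TPM for MAPK12 and 42.7 and 48.2 TPM for MAPK8, so their order is not resolved. MAP2K2 (MEK2) is the most abundant member of all, with 96.7, 99.1 and 105.3 TPM in shControl and 100.9, 98.0 and 101.6 TPM in shSTBD1. It makes up 39.6% of the TPM of its tier, ahead of MAP2K3, an activator of p38, with 47.0 TPM and MAP2K1 (MEK1) with 42.4 TPM.

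The MAP3K tier is spread over many kinases at moderate levels. MAP3K11 (MLK3), a mixed lineage kinase that activates JNK, leads it with 35.9, 35.1 and 31.8 TPM in shControl and 30.4, 30.4 and 30.3 TPM in shSTBD1. It is followed by MAP3K7 (TAK1), a kinase of inflammatory signalling, with 17.5 TPM and MAP3K20 (ZAK), a kinase of ribosomal stress, with 16.9 TPM. Their libraries overlap (16.2 to 18.4 and 16.1 to 17.6 TPM), so the order of these 2 is not resolved. In the MAP4K tier, MAP4K4 has 49.2, 45.4 and 43.0 TPM in shControl and 45.6, 44.1 and 46.2 TPM in shSTBD1, and MAP4K2 has 36.5 TPM on average. These 2 kinases hold 42.7% and 34.2% of the TPM of the tier, while MAP4K1, a kinase of blood cells, has 1.01 TPM.

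A few members are close to silent. MAPK4 (0.68 TPM) and MAP2K6 (0.40 TPM) are tested at low counts. MAPK10 (JNK3), which is known from neurons, has between 4 and 7.1 expected counts per library, and MAP3K19 has 0, 2 and 0 counts in shControl and 1, 0 and 0 in shSTBD1. Neither has enough counts to be tested, which leaves 40 members.

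**Figure D1:**
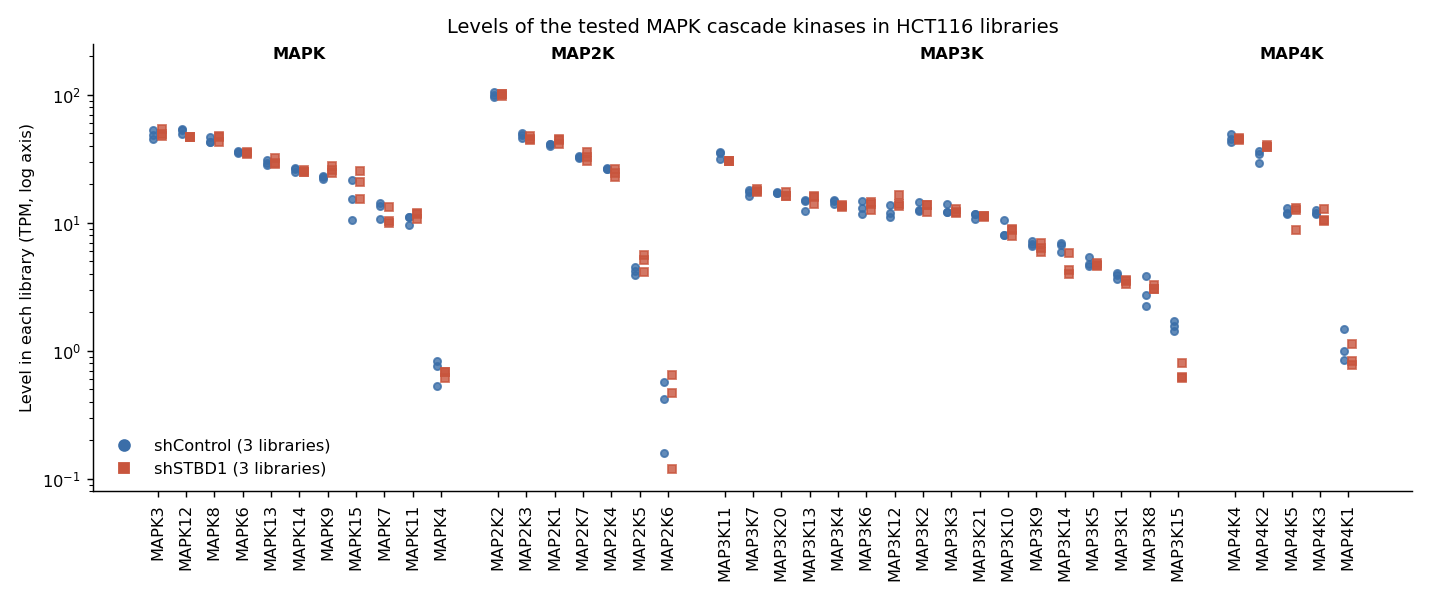
Level of each of the 40 tested members in TPM (log axis) in the 3 shControl libraries (circles) and the 3 shSTBD1 libraries (squares), grouped by tier and ordered by mean level. MAP2K2 is at about 100.3 TPM on average and MAP2K6 lowest at 0.40 TPM, and the groups lie close to each other for nearly all kinases, with MAP3K15 among those that separate.

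Some of these kinases differ between the groups, in a share that was not tested against that of all genes. In shSTBD1, MAP2K1 and MAPK15 are higher and MAP3K14 and MAP3K15 are lower, which makes 4 of the 40 tested members (10%), where 15.8% of all tested genes pass the same test. In the higher direction they are 2 of 40 against 8.22% of all genes, and in the lower direction 2 of 40 against 7.54%. An unadjusted p below 0.05 is found for 10 of the 40, beside 30% of all genes. Only MAP3K15 also passes an unadjusted p below 1e-5 by edgeR, which 2.38% of all genes pass. The methods set this threshold for DESeq2, together with a limit on the TPM fold change, and use looser thresholds elsewhere. The median absolute log2 fold change is 0.080 over the members and 0.11 over all tested genes, which were not matched to the members by level. Of the members, 24 lie within 0.1 of no change, and the signs divide into 19 higher and 21 lower. In CPM the groups do not overlap for 15 members, and for 33.6% of all genes.

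These calls depend on the fit. RSEM's effective length of a gene differs between libraries with its mix of isoforms. When this length is included in the edgeR fit, only MAP3K15 is called among the members and 3.28% among all genes. The log2 fold changes of MAPK15 and MAP3K14 are then 0.41 and -0.48, in place of 0.37 and -0.41. DESeq2, without such lengths, does not call MAP2K1 and MAPK15 either (adjusted p = 0.10 and 0.057). By edgeR without effective lengths and without shControl replicate 1, 3 members are called. They are MAP3K14, MAP3K15 and MAPK12, which is lower by edgeR there (log2 fold change -0.12, adjusted p = 0.027). Of all genes tested there, 16.2% are called. Without shSTBD1 replicate 2 or without shSTBD1 replicate 3, only MAP3K14 and MAP3K15 are called, beside 8.9% and 9.46% of all genes. With no library left out the share of all genes is 15.8%.

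**Figure D2:**
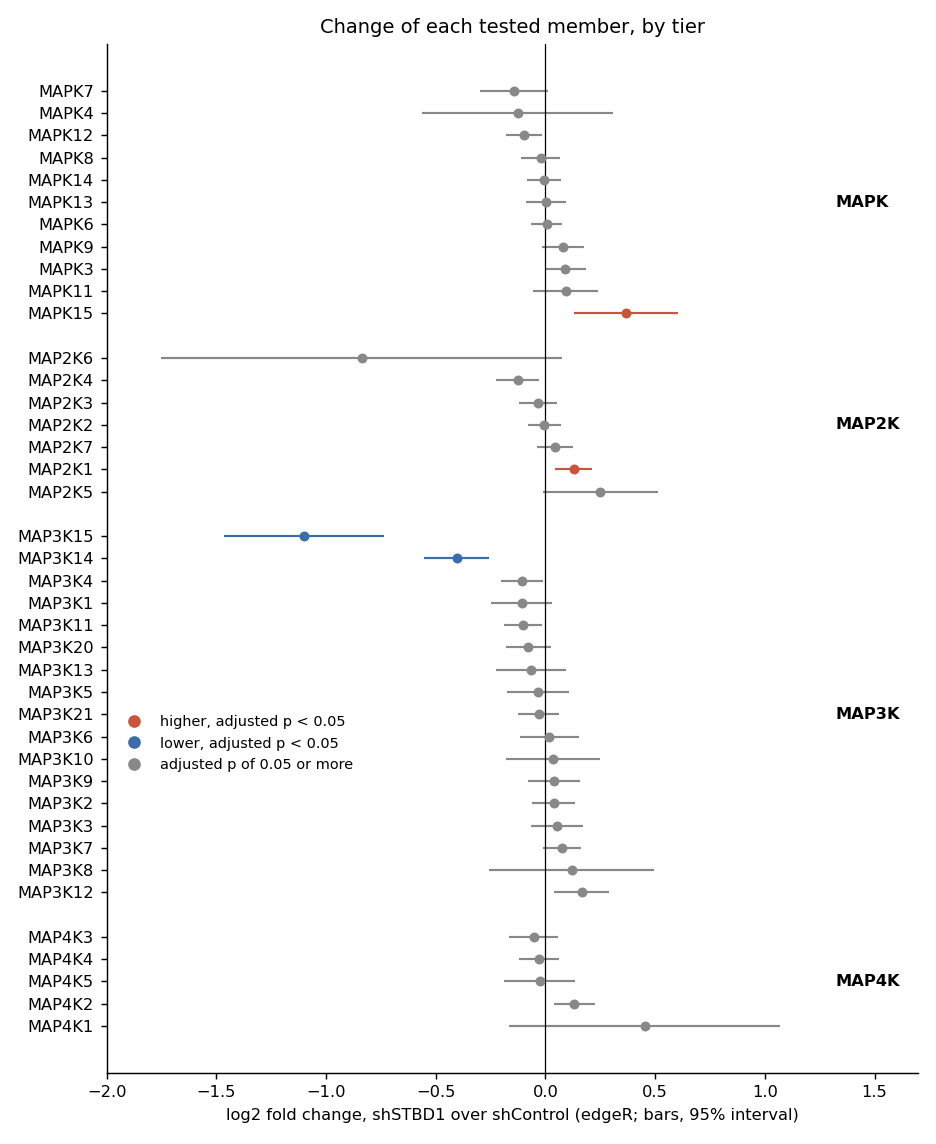
log2 fold change of each tested member (points, with 95% intervals as bars) by tier, where red points are higher and blue points lower at an adjusted p below 0.05. MAP3K15 at -1.10 and MAP3K14 at -0.41 lie far below the rest of the MAP3K tier, and the wide intervals belong to kinases with few counts, such as MAP2K6.

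Within the MAPK tier, 1 of 11 tested kinases rises and none falls, beside 8.22% and 7.54% of all tested genes. MAPK15 (ENSG00000181085, chr8:143716340-143722458), an atypical MAPK, is 8.36, 10.97 and 11.5 CPM in shControl and 11.6, 14.1 and 13.9 CPM in shSTBD1, which is a change of 0.37 on the log2 scale with a standard error of 0.11 (adjusted p = 0.036). The groups barely separate in CPM, and they overlap in TPM, with 10.6, 15.3 and 21.6 against 15.4, 21.0 and 25.4. The lowest value on both scales is shControl replicate 1, without which the log2 fold change is 0.24 (adjusted p = 0.11). The adjusted p is also 0.16 without shSTBD1 replicate 2, 0.12 without shSTBD1 replicate 3, 0.057 with DESeq2 and 0.41 with effective lengths in the fit.

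The other 10 MAPKs do not pass the test, with log2 fold changes between -0.14 and 0.092. MAPK3, an ERK, has 48.7, 49.3 and 52.2 CPM in shControl and 53.5, 53.4 and 52.8 CPM in shSTBD1, without overlap, and its log2 fold change of 0.090 has a 95% interval from -0.004 to 0.18 (adjusted p = 0.18). MAPK12 (p38 gamma) has 82.0, 86.0 and 86.2 CPM in shControl and 76.8, 79.7 and 80.6 CPM in shSTBD1 (log2 fold change -0.099, adjusted p = 0.093). The remaining p38 kinases MAPK11, MAPK13 and MAPK14, the JNKs MAPK8 and MAPK9, the ERK5 gene MAPK7 and the atypical MAPK4 and MAPK6 lie in the same range.

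Among the MAP2Ks, 1 of 7 rises, beside 8.22% of all tested genes. MAP2K1 (ENSG00000169032, chr15:66386837-66491656), which phosphorylates MAPK3, is 72.7, 77.3 and 71.1 CPM in shControl and 79.7, 81.2 and 81.1 CPM in shSTBD1. The groups do not overlap, and the increase of 9.3% (log2 fold change 0.13, standard error 0.040) has an adjusted p of 0.039. In TPM, however, it is 41.6, 41.7 and 40.2 against 44.8, 41.1 and 45.3, and shSTBD1 replicate 2 lies within the shControl range. The call is lost when any library other than shControl replicate 2 is left out, with an adjusted p of 0.059 without shControl replicate 1, 0.15 without shControl replicate 3 and 0.088, 0.12 and 0.12 without shSTBD1 replicates 1, 2 and 3. DESeq2 gives an adjusted p of 0.10, and the fit with effective lengths 0.38.

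MAP2K2, which also phosphorylates MAPK3, is 125.1, 121.4 and 123.7 CPM in shControl and 126.6, 123.6 and 118.7 CPM in shSTBD1. Its log2 fold change is -0.005, with a 95% interval from -0.079 to 0.069, and turns to 0.0031 without shControl replicate 1. MAP2K4, which activates JNK, is 80.8, 76.0 and 75.3 CPM in shControl and 75.5, 70.3 and 67.0 CPM in shSTBD1, with overlap (log2 fold change -0.13, adjusted p = 0.077). It passes the test only with 1 library less (-0.17, adjusted p = 0.036 without shSTBD1 replicate 1), without the filter on low counts (adjusted p = 0.047) or with the replicate number as a block (adjusted p = 0.035). MAP2K3, MAP2K7, MAP2K5 (the activator of ERK5) and MAP2K6 have log2 fold changes of -0.036, 0.045, 0.25 and -0.84, and MAP2K6 rests on at most 0.90 CPM in any library, so that its interval runs from -1.75 to 0.076.

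The MAP3K tier holds the largest change. MAP3K15 (ENSG00000180815, chrX:19360056-19515508), a kinase of the apoptosis signal-regulating (ASK) group, is 4.44, 5.09 and 5.02 CPM in shControl and 2.04, 2.06 and 2.65 CPM in shSTBD1. It falls in every shSTBD1 library below every shControl library, and with a change of -1.10 on the log2 scale and a standard error of 0.17 (adjusted p = 0.00036) it keeps 0.467 of the control level. TPM gives 1.44, 1.57 and 1.72 against 0.61, 0.62 and 0.81. Between 37.3 and 106.3 expected counts per library lie behind these values, and the exact permutation test gives the smallest p it can, 0.1. Without shControl replicate 1 the log2 fold change is -1.16 (adjusted p = 0.00013), and with effective lengths in the fit it is -1.19 (adjusted p = 0.012).

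Its relatives in the ASK group do not pass the test. MAP3K5 (ASK1), which relays oxidative stress to JNK and p38, has a log2 fold change of -0.033 (95% interval from -0.17 to 0.11) at 4.83 TPM. MAP3K6 (ASK2) has 0.017 (95% interval from -0.12 to 0.15) at 13.5 TPM. MAP3K15, at 1.13 TPM, is the least abundant of the group, and the summed TPM of the group overlaps between shControl (18.8 to 21.3) and shSTBD1 (17.9 to 19.99).

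MAP3K14 (ENSG00000006062, chr17:45263119-45317029), known as NIK, the kinase that starts non-canonical NF-kappaB signalling, is 18.9, 19.5 and 19.2 CPM in shControl and 13.7, 14.6 and 15.04 CPM in shSTBD1. It changes by -0.41 on the log2 scale, with a standard error of 0.069 (adjusted p = 0.00081), and each shSTBD1 library is below each shControl library. In TPM it is 5.96, 7.02 and 6.73 against 3.96, 4.29 and 5.83. Without shControl replicate 1 the log2 fold change is -0.42 (adjusted p = 0.00053). With effective lengths in the fit it is -0.48, but the adjusted p is 0.11.

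The other 15 tested MAP3Ks do not pass the test and lie between -0.11 and 0.17. MAP3K4, a MEKK of the stress branches, is 53.0, 51.8 and 53.8 CPM in shControl and 51.0, 48.5 and 47.5 CPM in shSTBD1 (log2 fold change -0.11, adjusted p = 0.11). MAP3K11 is 95.2, 88.3 and 85.8 CPM in shControl and 83.6, 84.5 and 83.0 CPM in shSTBD1 (log2 fold change -0.10, adjusted p = 0.11), and leaving out shControl replicate 1, its highest library, brings this to -0.060. MAP3K12 (DLK), a mixed lineage kinase of the JNK branch, has the opposite sign, with 24.5, 23.0 and 24.7 CPM in shControl and 25.8, 27.4 and 27.7 CPM in shSTBD1 (log2 fold change 0.17, adjusted p = 0.070). In all 3 the groups do not overlap in CPM, yet none reaches the threshold. The MEKKs MAP3K1, MAP3K2 and MAP3K3, MAP3K7, the ERK-activating MAP3K8 (TPL2) and the mixed lineage kinases MAP3K9, MAP3K10, MAP3K13, MAP3K20 and MAP3K21 all lie between -0.11 and 0.12.

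None of the 5 MAP4Ks passes the test. MAP4K2 comes closest, with 60.4, 65.7 and 64.7 CPM in shControl and 66.7, 71.6 and 70.5 CPM in shSTBD1 (log2 fold change 0.13, standard error 0.045, adjusted p = 0.057). Its groups do not overlap in CPM or in TPM. It passes without shControl replicate 2 (0.16, adjusted p = 0.048), without the filter on low counts (adjusted p = 0.043), with at least 10 counts in every library (adjusted p = 0.049) or with the replicate number as a block (adjusted p = 0.033), and is 0.094 without shControl replicate 1 (adjusted p = 0.15). MAP4K4 is 196.4, 172.1 and 172.9 CPM in shControl and 179.9, 175.7 and 175.1 CPM in shSTBD1. Its log2 fold change of -0.029 turns to 0.034 without shControl replicate 1, its highest library. MAP4K3 and MAP4K5 have -0.054 and -0.027, and MAP4K1 0.45 at about 1 CPM, with a 95% interval from -0.17 to 1.07.

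**Figure D3:**
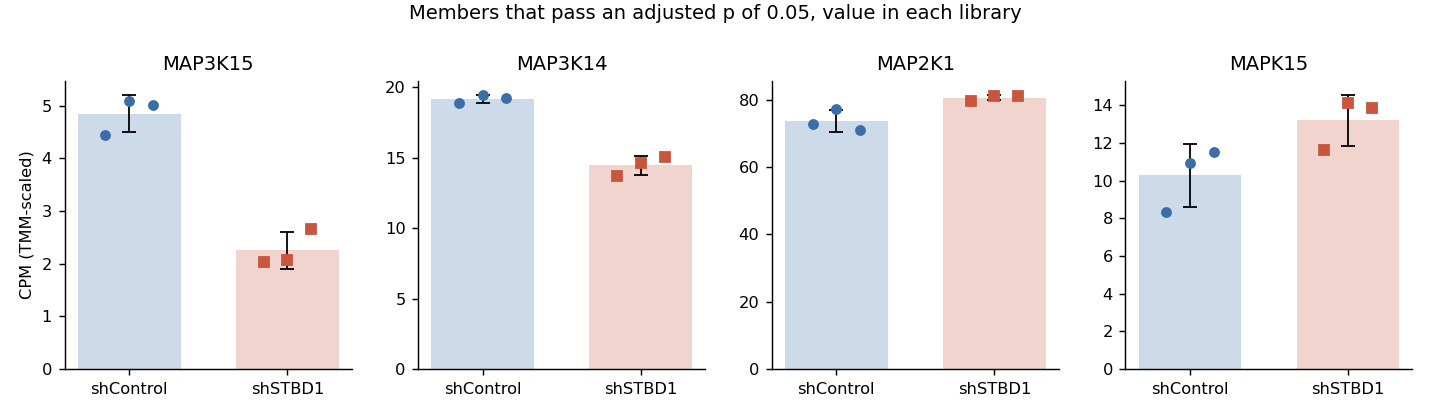
CPM of the 4 members with an adjusted p below 0.05 in each library (points), with the mean of 3 libraries (bars) and the standard deviation (error bars), each panel with its own linear axis from 0. MAP3K15 drops from 4.85 to 2.25 CPM on average, whereas MAP2K1 moves by 9.3%.

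In sum of TPM the tiers differ little between the groups. The 12 MAPKs sum to 280.1, 307.7 and 311.3 TPM in shControl and 292.9, 308.9 and 310.6 TPM in shSTBD1, and the MAP2Ks to 247.0, 253.9 and 259.1 TPM against 256.1, 250.2 and 252.0 TPM, both with overlap. The MAP3Ks sum to 196.2, 196.6 and 195.8 TPM in shControl and to 190.8, 190.5 and 190.9 TPM in shSTBD1, a range that lies wholly below. Within the tier MAP3K11, which is not called, goes from 34.3 to 30.4 TPM on average. The edgeR log2 fold changes of the tier divide into 8 higher and 9 lower. For the MAP4K sums the order is the opposite, with 103.9, 104.9 and 106.1 TPM against 107.3, 108.3 and 109.7 TPM. Only MAP4K2 among them has a higher mean TPM in shSTBD1 (39.5 against 33.5 in shControl). In the ERK branch, MAP2K1, MAP2K2 and MAPK3 sum to between 183.7 and 198.2 TPM in shControl and between 193.2 and 196.2 TPM in shSTBD1, with overlap. The kinases of the p38 branch sum to between 158.3 and 171.7 TPM against 157.3 to 161.9 TPM, with overlap. Those of the JNK branch, where MAP2K4 is counted, sum to between 123.6 and 130.1 TPM against 127.7 to 133.4 TPM, also with overlap. These sums are descriptions and are not tested.

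**Figure D4:**
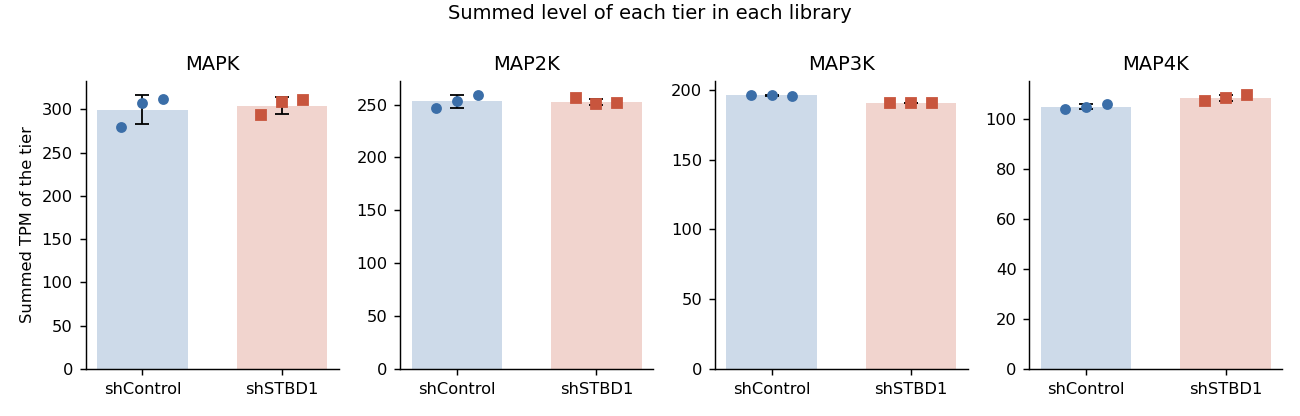
Summed TPM of each tier in each library (points), with the mean of the 3 libraries of a group (bars) and the standard deviation (error bars), on linear axes from 0. The MAP3K sums are 196.2 TPM in shControl and 190.7 TPM in shSTBD1 on average, and those of the MAPKs and the MAP2Ks overlap between the groups.

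Counts and TPM do not always point the same way. MAP4K1 has more counts in shSTBD1 (1.38 against 1.00 CPM on average) but a lower TPM (0.91 against 1.11), since its mean effective length is 1708 bases in shSTBD1 and 1093 in shControl. MAP3K13 has fewer counts (19.8 against 20.6 CPM) and a higher TPM (15.5 against 14.1). MAP2K6 has 0.39 against 0.70 CPM and 0.41 against 0.38 TPM. None of these genes passes the test.

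A further feature that the members can share lies in their 3' UTRs. A match of 7 bases to the control hairpin given in the methods, GTGTCAC, is found on the transcript strand in the 3' UTR of the canonical transcript of 9.82% of 13036 tested genes and of 3 of 40 tested members. MAPK8, MAPK9 and MAP4K2 hold 1 each. Whether GTGTCAC is the stretch through which the control hairpin would pair with a transcript was not tested. Other stretches of 7 bases in the control hairpin were not searched, nor was the hairpin against STBD1, which the shSTBD1 cells carry. The log2 fold changes of these genes are -0.023, 0.081 and 0.13, and whether the matches have a part in them was not tested.

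Around the kinases, 5 further lists cover the RAS and RAF genes with their adaptors, scaffolds and partners of MAP3Ks, phosphatases of MAPKs, kinases that MAPKs activate and genes induced by ERK. Of their 60 genes, 59 are tested and 17 change, 10 higher and 7 lower, which is 28.8% beside 15.8% of all genes. Because the lists were chosen with earlier results of these data known, this share is a description and no test of the pathway. The exception to testing is RPS6KA6, with no count in any library. When effective lengths are included in the fit, 4 of the 17 calls are kept, those of SPAG9, DUSP4, CCND1 and IER3.

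Of the RAS and RAF list, which holds NRAS, HRAS, ARAF and BRAF, none of 10 genes changes by edgeR's adjusted p, 2 have an unadjusted p below 0.05 (SOS1 and GRB2), and all lie between -0.12 and 0.11 on the log2 scale. Of the 15 scaffolds and partners, 4 rise and none falls, where 8.22% of all tested genes rise and 7.54% fall. MAPK8IP2 (JIP2) and SPAG9 (JIP4), both of which hold kinases of the JNK or p38 branch together, rise by 0.38 and 0.22 on the log2 scale, with standard errors of 0.077 and 0.035 (adjusted p = 0.0029 and 0.00052). TXN, thioredoxin, which binds and inhibits ASK1, rises from 218.7 ± 13.98 to 253.0 ± 5.35 CPM (SD, n = 3), with a log2 fold change of 0.21 (adjusted p = 0.0020). KSR2, a scaffold of the ERK branch, has 0.18 (adjusted p = 0.020), but only 0.032 with effective lengths in the fit (adjusted p = 0.84), and its adjusted p is 0.074, 0.088 and 0.12 without shControl replicate 2, shControl replicate 3 and shSTBD1 replicate 1.

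Among 10 phosphatases, 2 fall and 1 rises, where 7.54% of all tested genes fall and 8.22% rise. DUSP6, which removes phosphate from ERK in the cytoplasm, is 73.1, 76.4 and 80.1 CPM in shControl and 59.6, 62.3 and 62.6 CPM in shSTBD1 (log2 fold change -0.31, standard error 0.043, adjusted p = 0.00011). DUSP4, a nuclear phosphatase, is 175.6, 165.2 and 168.4 CPM in shControl and 145.2, 144.4 and 146.1 CPM in shSTBD1 (log2 fold change -0.22, adjusted p = 0.00021). DUSP5, a nuclear phosphatase of ERK, moves the other way, from 99.2 ± 3.14 to 111.9 ± 3.72 CPM (SD, n = 3; log2 fold change 0.17, adjusted p = 0.0054). In all 3 the groups do not overlap.

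Of the 10 tested kinases that MAPKs activate, 1 rises and 1 falls, beside 8.22% and 7.54% of all tested genes. MKNK2, which phosphorylates the translation factor eIF4E, rises by 0.16 on the log2 scale (adjusted p = 0.0083), a call that is lost without shSTBD1 replicate 1 (adjusted p = 0.067). With effective lengths in the fit its log2 fold change is 0.080 (adjusted p = 0.62). RPS6KA2 (RSK3), an ERK target, is 11.7, 9.63 and 9.71 CPM in shControl and 6.78, 7.54 and 5.55 CPM in shSTBD1 (log2 fold change -0.64, standard error 0.12, adjusted p = 0.0020).

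The 14 genes induced by ERK signalling do not move together. IER3, FOS, EGR1 and FOSL1 rise and CCND1, EPHA2, SPRED1 and ETV5 fall, where 8.22% of all tested genes rise and 7.54% fall. The list has a median log2 fold change of -0.083, beside 0.0023 for all genes. IER3, an immediate early gene, is 290.4, 345.5 and 344.8 CPM in shControl and 474.3, 472.0 and 479.6 CPM in shSTBD1 (log2 fold change 0.54, adjusted p = 1.6e-06). CCND1, cyclin D1, which drives entry into S phase, is 646.6, 561.4 and 562.5 CPM in shControl and 448.8, 438.6 and 431.5 CPM in shSTBD1 (log2 fold change -0.42, adjusted p = 7e-06). EPHA2, an ephrin receptor, falls by 0.20 on the log2 scale (adjusted p = 0.00041), and FOSL1, an AP-1 subunit, rises by 0.23 (adjusted p = 0.0019). The calls of SPRED1 (adjusted p = 0.034), ETV5 (0.037) and FOS (0.030) are the weakest. That of SPRED1 is lost when any 1 of the 6 libraries is left out (adjusted p from 0.051 to 0.15), and that of ETV5 with any library other than shControl replicate 1 left out (0.083 to 0.16). ETV5 also changes direction with effective lengths in the fit (0.025, adjusted p = 0.90). The call of FOS is lost without shControl replicate 1 (adjusted p = 0.085), shControl replicate 2 (0.056), shSTBD1 replicate 1 (0.11) or shSTBD1 replicate 3 (0.12). Without shControl replicate 1, SPRED1 and FOS are the only 2 of the 17 further genes to lose their call.

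**Figure D5:**
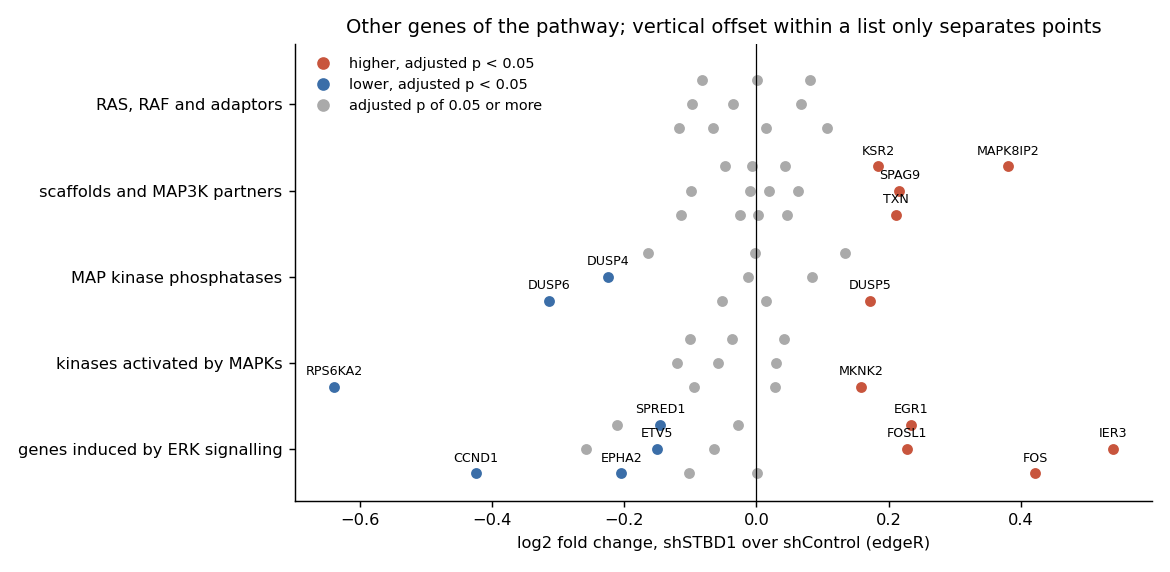
log2 fold change of the 59 tested genes of the 5 further lists, 1 list per row, with the genes at an adjusted p below 0.05 named and in red (higher) or blue (lower). The RAS and RAF row holds no such gene, and the genes induced by ERK spread from CCND1 at -0.42 to IER3 at 0.54.

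The markers of colorectal epithelium are present in every library, and 6 of 8 rise in shSTBD1, with and without shControl replicate 1: CDH1, KRT8, KRT18, KRT19, CLDN4 and CLDN7. Of all tested genes, 8.22% rise by the same test. CLDN3 has the opposite sign, with 8.47, 9.10 and 7.91 CPM in shControl and 6.73, 7.03 and 7.82 CPM in shSTBD1, without overlap (log2 fold change -0.24, unadjusted p = 0.039, adjusted p = 0.14). With effective lengths in the fit the change of CLDN7 is 0.068 in place of 0.13 (adjusted p = 0.44). The summed level of all 8, EPCAM included, runs from 3547 to 3776 CPM in shControl and from 4197 to 4277 CPM in shSTBD1. Of 5 markers of other cell types, PTPRC (leukocytes) has no count in any library and COL1A2 (fibroblasts) and PECAM1 (endothelium) have at most 3 and 5 counts, while COL1A1 does not pass the test and CD68 rises (log2 fold change 0.47, adjusted p = 0.0027). The summed level of these 5 is 41.4 to 47.4 CPM in shControl and 50.1 to 54.4 CPM in shSTBD1. Nearly all of it is COL1A1 (34.9 CPM in shControl and 38.1 CPM in shSTBD1 on average) and CD68 (9.69 and 13.4 CPM). The posterior standard deviation of the CD68 count is 5.26%, so part of its reads also fit other genes. The part of these marker shifts in the changes of the kinases was not tested.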

How the data were processed

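RNA-seq of HCT116 cells was compared between 3 shControl and 3 shSTBD1 libraries, grouped by their labels. According to the methods, low-quality, adapter and poly-N reads were removed. Alignment to Hg38 used STAR 2.7.1a with Ensembl gene models, and quantification used RSEM 1.3.1. The deposited expected counts are not normalized. The authors' TPM values follow from expected counts and effective lengths and have an equal sum in all libraries. RSEM's effective lengths, in bases, and posterior standard deviations of the counts were deposited too, and are treated as scores. The strand setting of the counting is not given in the sources used here.

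Expected counts were rounded, filtered by filterByExpr and scaled by TMM, and 15566 genes were tested with edgeR 4.0.16 (R 4.3.3) without a replicate term. Adjustment followed Benjamini and Hochberg over all tested genes, and no p was adjusted over the members alone. The common biological coefficient of variation was 3.37%. Tables and coding windows were made with Python 3.11.15, pandas 2.3.3 and Biopython 1.88, and gene positions come from GENCODE 44. The scripts were tested on simulated data. P-values set the difference between the groups against the spread between these replicates. Other effects of a hairpin, and differences between the selected lines, cannot be told apart from the depletion of STBD1 in this design.

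The members and the lists were chosen with earlier results of these data known. A few items of this pathway are not reported here, and counts and sums are over the members and genes that remain. Values per library are given for members with an unadjusted p below 0.05 and for the most abundant member of each tier, and up to 4 called genes with the smallest p are given from each further list. MAPK3 and 3 members whose counts and TPM differ in sign were added after their values were seen. Alternatives were DESeq2 1.42.0, library size, upper-quartile factors, other filters, effective-length offsets, limma 3.58.1 on log2 of TPM plus 1 or 0.1, the replicate number as a block, and leaving out each library. RNA-seq of cells that re-express STBD1 and the metabolomics were not analysed here.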

Additional observations from a re-analysis of the deposited data

How the results depend on the processing

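Under 16 alternatives for each of 13 members and STBD1, 186 of 224 values kept their direction and their side of the adjusted p of 0.05, 24 lost the call, 8 gained one and 6 turned their sign (MAP3K15 with DESeq2, which has no adjusted p there, is among the kept by its unadjusted p). Members that are not called in the main fit cannot lose a call. Of the 16 alternatives for each gene, the call is lost in 10 for MAP2K1, 8 for MAPK15, 4 for MAP3K14 and 2 for STBD1. For the 17 further genes of the pathway, 193 of 272 kept both, 75 lost the call and 4 turned. The number of members called (4, with 2 higher and 2 lower) is 1 with DESeq2 (0 higher, 1 lower; 0 MAPK, 0 MAP2K, 1 MAP3K), which gives no adjusted p for MAP3K15, MAP3K8, MAP2K6, MAP4K1 and MAPK4, so that they are left out of that count (the unadjusted p of MAP3K15 is 1.4e-06). It is 1 (0 higher, 1 lower; 0 MAPK, 0 MAP2K, 1 MAP3K) with effective-length offsets, with limma on log2(TPM + 1) and with limma on log2(TPM + 0.1), MAP3K15 each time. All genes called are then 511, 292 and 290, against 2453 in the report and 1693 with DESeq2. Of the further pathway genes, 4 are called with effective-length offsets and 3 with either limma fit. Without a filter on low counts, 2 MAP2Ks and 1 MAP4K are called, and with at least 10 counts in every library 1 MAP4K. Leaving out each library in turn gives 2 to 5 members called (0 to 3 higher, 2 to 3 lower), with 0 to 1 MAPK, 0 to 1 MAP2K, 2 MAP3Ks and 0 to 1 MAP4K, and 12 to 16 further pathway genes. The lowest, 2, is without shSTBD1 replicate 2 and without shSTBD1 replicate 3. Over all genes, the share called in the fits with a library left out runs from 8.9% to 16.2%. The log2 fold change of STBD1 is -0.54 (adjusted p = 0.065) with limma on log2(TPM + 1) and -0.65 (adjusted p = 0.067) on log2(TPM + 0.1). Values that turn their sign are those of MAP2K2 (0.0054 with library size, 0.0078 with effective-length offsets, -0.028 to 0.020 with a library left out), MAP4K4 (-0.063 to 0.034 with a library left out) and ETV5 (0.025 with effective-length offsets, 0.012 and 0.013 with limma). The cause was not tested.

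Whether libraries of the same replicate number are paired is not settled. Their deviations from the group means correlate at 0.071, 0.068 and -0.0084, and those of the other pairs between the groups at -0.074 to 0.010. With the replicate block, 6 members are called (2 MAP2Ks, 1 MAP4K) and 2579 genes in all. With the replicate block and effective-length offsets, 1 member (0 higher, 1 lower; 0 MAPK, 0 MAP2K, 1 MAP3K), 3 further pathway genes and 350 genes in all are called, with MAP2K2 at 0.0082 and ETV5 at 0.023. Depth limits the members at or below about 1 TPM, whose intervals are wide.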
